A study of Mus musculus with 6 samples.

Results

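The epithelial chemokines are chemokine genes that airway lining cells make themselves. The 10 genes described here, Cxcl1, Cxcl2, Cxcl5, Cxcl10, Cxcl15, Cxcl16, Cxcl17, Ccl20, Ccl28 and Cx3cl1, were measured in mouse airway epithelial organoids (MAOs) grown from airway epithelial cells of C57BL/6 mouse lung and plated as a flat layer (2D-MAOs). A probe was assigned to a gene when the RefSeq accession that the array gives for it belonged to that gene, which gave 12 probes of 56599, and all 10 genes were among the 14345 tested of 22910 on the array. The control group was 3 cultures without TGF-β1 and the other group 3 cultures that received TGF-β1 on day 3. From day 3 all 6 were kept in medium without noggin, a BMP antagonist, and without A83-01, an inhibitor of TGF-β type I receptors, and all were collected on day 7. The sources give neither the age of the mice nor the dose for these arrays. The study describes the 3 cultures of a group as biological replicates without saying whether they came from separate mice, so the p-values measure the spread between these cultures.

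Chemokines are small secreted or membrane-anchored proteins that bind receptors on leukocytes and direct their movement. Epithelial cells of the airway release them when they sense microbes, interleukins, tumour necrosis factor or interferons, and much of that release runs through the transcription factor NF-κB. TGF-β1 is a cytokine of tissue repair whose receptors act through Smad proteins. The comparison asks which chemokine transcripts of the airway epithelium differed between cultures with and without TGF-β1.

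The promoter sequences that bear on this are shown first, because some of these genes carry letters that resemble NF-κB or interferon response elements. RefSeq promoter sequence of the assembly GRCm38.p6 was at hand for 7 of the 10 genes, and not for Cxcl5, Cxcl16 and Cxcl17. The 250 bases before the transcription start are printed 5′ to 3′ on the strand of the gene for the 4 genes that held an NF-κB-like match. These are Cxcl1 (chr5:90890995-90891244, plus strand), Cxcl2 (chr5:90903649-90903898, plus strand), Cxcl10 (chr5:92348890-92349139, minus strand) and Ccl20 (chr1:83116516-83116765, plus strand). Capitals mark matches, on either strand, to the NF-κB-like letters GGGNNTTNC and to the letters GAAANNGAA, which resemble an interferon-stimulated response element (ISRE), where N is any base.
Cxcl1: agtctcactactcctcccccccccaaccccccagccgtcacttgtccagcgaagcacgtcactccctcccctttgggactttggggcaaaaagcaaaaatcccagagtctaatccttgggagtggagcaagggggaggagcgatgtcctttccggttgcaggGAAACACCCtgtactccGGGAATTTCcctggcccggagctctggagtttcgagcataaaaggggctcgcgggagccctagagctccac
Cxcl2: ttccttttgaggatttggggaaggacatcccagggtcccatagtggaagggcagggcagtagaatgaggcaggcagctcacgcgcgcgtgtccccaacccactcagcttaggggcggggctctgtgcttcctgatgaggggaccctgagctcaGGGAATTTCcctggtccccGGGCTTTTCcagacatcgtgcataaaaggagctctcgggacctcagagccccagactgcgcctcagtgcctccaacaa
Cxcl10: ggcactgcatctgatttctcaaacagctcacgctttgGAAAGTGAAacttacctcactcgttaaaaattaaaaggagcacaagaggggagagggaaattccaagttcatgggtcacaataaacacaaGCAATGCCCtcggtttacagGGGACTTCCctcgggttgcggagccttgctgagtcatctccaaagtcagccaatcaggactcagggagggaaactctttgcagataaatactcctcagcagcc
Ccl20: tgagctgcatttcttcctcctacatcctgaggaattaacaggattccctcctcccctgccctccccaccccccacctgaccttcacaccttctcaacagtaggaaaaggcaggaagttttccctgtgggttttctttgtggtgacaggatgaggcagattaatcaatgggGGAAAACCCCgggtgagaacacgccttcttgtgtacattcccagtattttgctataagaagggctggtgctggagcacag

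Among 32536 promoters of the same length, 12.9% held an NF-κB-like match and 7.15% an ISRE-like match. Cxcl1 and Cxcl2, which lie side by side on chromosome 5, each had 2 NF-κB-like matches, and the letters GGGAATTTC occurred in both, 71 to 63 bases before the start in Cxcl1 and 97 to 89 bases before it in Cxcl2. The second match of Cxcl1, on the minus strand, began 88 bases before the start, and that of Cxcl2 began 78 bases before it. Cxcl10 was the single one of the 7 with an ISRE-like match, 213 to 205 bases before the start, and it also had 2 NF-κB-like matches, GGGACTTCC at 103 to 95 bases before the start and 1 on the minus strand at 123 to 115 bases. In Ccl20 the 2 matches, both on the minus strand, overlapped in all but 1 base each. Cxcl15, Ccl28 and Cx3cl1 had neither motif in this window. The AP-1-like letters TGANTCA, found in 6.73% of promoters, were present in Cxcl10 alone of the 7. The letters CAGAC, which Smad proteins can bind, were found in 42.2% of all promoters and in Cxcl2 alone of the 7, which had 2 copies that overlapped no other match. A match describes letters in this window and does not show binding. The search used a fixed pattern, so similar letters that depart from it, such as gggaaattcc in Cxcl10, are not marked or counted.

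Values are log2 signals after quantile normalization of the 6 arrays, so that a difference of 1 is a 2-fold difference in signal, and they were compared between arrays and not between probes. Feature Extraction marks a spot as well above background by a test against its surroundings, and between 55.0% and 59.0% of probes bore that mark on each array. The treatment was visible in known TGF-β target genes, of which 6 of 11 rose by limma with adjusted p under 0.05 (3 when control replicate 1, TGF-β1 replicate 1 or TGF-β1 replicate 2 was left out), the 4 with the largest changes being the matrix and matricellular genes Tgfbi, Ltbp2, Fn1 and Ccn2, with log2 fold changes of 4.58, 4.03, 2.22 and 2.10 (adjusted p = 0.00247, 0.00316, 0.0279 and 0.0111). Epithelial markers were well above background on all 6 arrays for 10 of 10 genes, with a mean level (log2 of the mean normalized signal over the list) of 15.02 to 15.11 in controls and 14.91 to 15.36 with TGF-β1. The goblet cell mucins Muc5ac and Muc5b and the alveolar surfactant genes Sftpc and Sftpb were below that mark on all 6 arrays. Replicate 3 of each group lay in row 2 of the slide and the other 4 arrays in row 1. Both arrays of row 2 received low array weights, which limma estimates from how closely an array follows its group. TGF-β1 replicate 3 had the lowest, 0.297 against 2.27 and 1.5 for the other treated arrays, and control replicate 3 had 0.447 against 2.1 and 1.05 for the other controls. The fits below are given without single arrays where that alters a call.

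In the comparison of 3 with 3 arrays, 3 chemokines had a higher mean with TGF-β1 and 7 a lower one, and 0 of the 10 passed the limma test after Benjamini-Hochberg adjustment over all genes tested, against 2.04% of all genes (1.63% higher and 0.404% lower). Of all genes, 1.19% were higher and 0.188% lower with a change of 2-fold or more as well. At an unadjusted p under 0.05, Cxcl10 and Cx3cl1 were higher and Cxcl17 was lower, which is 3 of 10 against 22.2% of all genes. Of the 10, the methods' t-test passed 0 after adjustment and Cxcl17 without it. For that test the share of all genes passing at the same threshold was not counted. The groups did not overlap for 4 of the 10, against 26.4% of all genes. All 3 treated arrays were above all 3 controls for Cx3cl1 (12.9% of all genes) and below them for Cxcl1, Cxcl17 and Ccl20 (13.5% of all genes). The median log2 fold change was −0.49 over the 10 genes and −0.03 over all genes tested. When TGF-β1 replicate 3 was left out, 3 of the 10 passed, against 15.4% of all genes. Cxcl10 and Cx3cl1 rose (9.08% of all genes rose), Cxcl17 fell (6.27% fell), and the median of the 10 was −0.19. In bulk RNA, fewer cells of a type and less RNA per cell cannot be told apart.

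**Figure D1:**
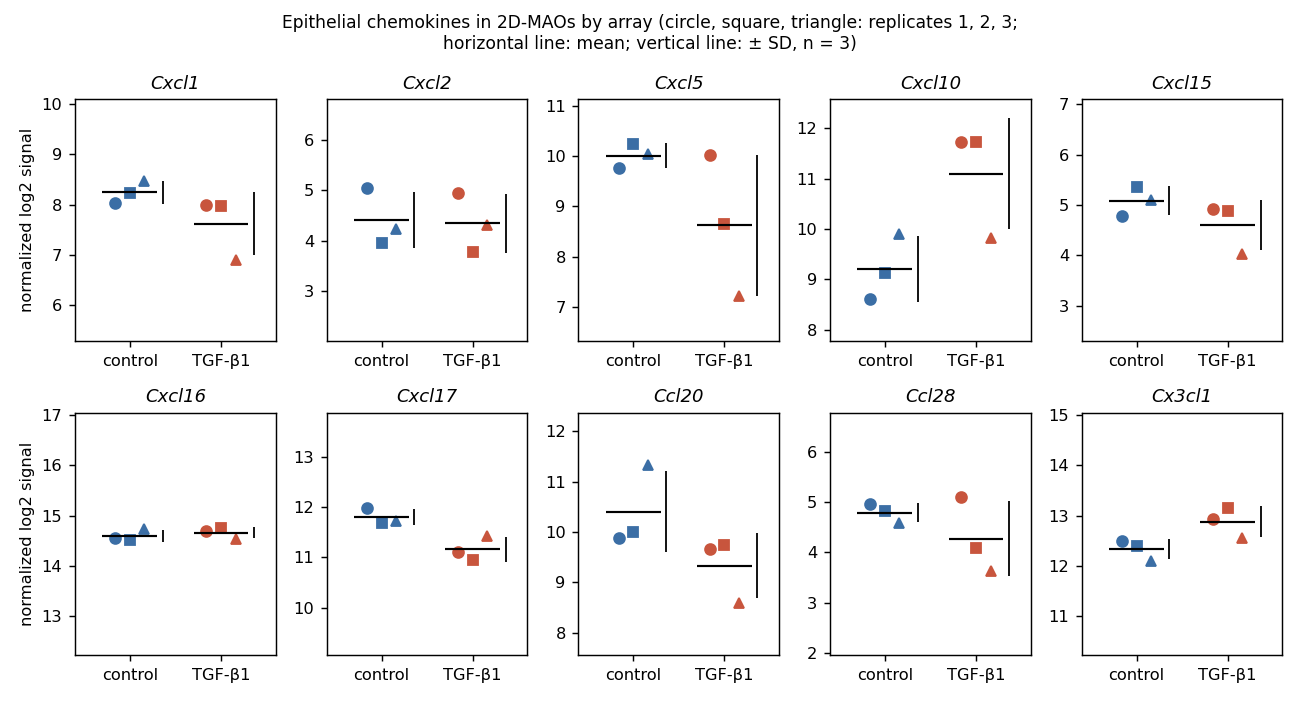
Normalized log2 signal of the 10 epithelial chemokines on each of the 6 arrays, with the control arrays at left and the TGF-β1 arrays at right in each panel. Every panel spans the same number of log2 units, horizontal lines are means and vertical lines ± SD (n = 3). Cxcl10 reached 11.73 and 11.74 in TGF-β1 replicates 1 and 2 and 9.83 in replicate 3 (triangle), whereas the 3 treated arrays of Cx3cl1 all lay above the controls and those of Cxcl17 all lay below them.

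Cxcl1, Cxcl2, Cxcl5 and Cxcl15 encode the neutrophil-attracting CXC chemokines. Cxcl1, which signals through CXCR2, had log2 signals of 8.03, 8.23 and 8.48 in the controls and 7.99, 7.98 and 6.90 with TGF-β1. The treated arrays were all below the controls, but replicates 1 and 2 lay just below the lowest control and replicate 3 far below it. The means were 8.25 ± 0.23 and 7.62 ± 0.63 (SD, n = 3 each) and differed by −0.62 on the log2 scale (SE 0.31, 95% confidence interval −1.36 to 0.11, limma adjusted p = 0.281). The exact two-sided permutation test gave p = 0.1, the smallest that 3 against 3 arrays allow. The difference was −0.14 among the 4 arrays of slide row 1 (adjusted p = 0.373) and −1.58 between the 2 arrays of row 2.

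Cxcl5, an epithelial neutrophil chemokine, had the largest mean decrease of the 10. In the order of replicates 1 to 3, its log2 signals were 9.75, 10.23 and 10.04 in the controls and 10.01, 8.64 and 7.21 with TGF-β1. The first treated array lay within the control range, the second below it and the third far below, so that the groups overlapped. The treated cultures varied much more than the controls, with SDs of 1.40 and 0.24. The log2 fold change was −1.38 (SE 0.64, 95% confidence interval −2.89 to 0.13, adjusted p = 0.255, exact permutation p = 0.2). Leaving out TGF-β1 replicate 3 gave −0.68 (adjusted p = 0.267), and leaving out TGF-β1 replicate 1 gave −2.08 (adjusted p = 0.157). Within slide row 1 it was −0.66 (adjusted p = 0.345) and within row 2 it was −2.82.

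Cxcl2, the close relative of Cxcl1, was dim. Its log2 signals were 5.04, 3.96 and 4.23 in the controls and 4.94, 3.77 and 4.32 with TGF-β1, and control replicate 2 was not well above background. The ranges of the groups coincided, and the spot brightness was only 1.49 to 2.12 times the local background over the 6 arrays. The log2 fold change was −0.06 (SE 0.37, adjusted p = 0.93) with a 95% confidence interval of −0.95 to 0.82, and its sign turned when arrays were scaled to their 75th percentile (0.11). Within rows 1 and 2 it was −0.15 and 0.10. The probe sequences were not at hand, so cross-hybridisation between the related transcripts of Cxcl1, Cxcl2 and Cxcl3 was not tested. Cxcl3 was well above background on 0 of the 6 arrays.

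Cxcl15 encodes lungkine, a neutrophil chemokine made by the mouse airway epithelium. Its log2 signals were 4.79, 5.36 and 5.10 in the controls and 4.92, 4.87 and 4.03 with TGF-β1, where replicate 3 was not well above background. Control replicate 1 lay below 2 of the treated arrays and the third treated array was the lowest of the 6. The log2 fold change was −0.47 (SE 0.27, 95% confidence interval −1.12 to 0.17, adjusted p = 0.332, exact permutation p = 0.3), with −0.18 within slide row 1 and −1.07 within row 2. Cxcl1, Cxcl5 and Cxcl15 thus had lower treated means, none of which passed the test, while the interval for Cxcl2 ran nearly as far up as down.

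Cxcl10, an interferon-inducible ligand of CXCR3 that attracts T cells and natural killer cells, had the largest mean increase of the 10. Its log2 signals were 8.61, 9.12 and 9.91 in the controls and 11.73, 11.74 and 9.83 with TGF-β1. Treated replicates 1 and 2 were nearly equal and far above every control, whereas replicate 3 was just below control replicate 3. The means were 9.21 ± 0.66 and 11.1 ± 1.1 (SD, n = 3 each), a ratio of 3.7-fold or 1.89 on the log2 scale (SE 0.57, 95% confidence interval 0.52 to 3.25). In limma its p was 0.0139 and its adjusted p 0.145, and the exact permutation p was 0.2. Leaving out TGF-β1 replicate 3 gave 2.52 (SE 0.36, adjusted p = 0.0131). Over the 6 fits that left out 1 array it ranged from 1.57 to 2.52, with adjusted p from 0.0131 to 0.402. Within slide row 1 it was 2.87 (adjusted p = 0.00779), within row 2 it was −0.09, and with the row as a block the adjusted p was 0.144.

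Other interferon-induced genes had mean differences on both sides of 0. Of 13 tested genes of the interferon response, 7 had a higher and 6 a lower mean, 0 passed the limma test, and the median log2 fold change was 0.01. At an unadjusted p under 0.05 there were 0 higher and 2 lower. Ifit3 (−1.12, adjusted p = 0.132) and Ifit1 (−0.78, adjusted p = 0.13), both strongly interferon-induced, were lower in all 3 treated arrays than in any control without passing the test. Again 0 of the 13 passed without TGF-β1 replicate 3 (1 higher and 2 lower at an unadjusted p under 0.05), and without control replicate 3 Ifit3 alone fell. Cxcl9, another CXCR3 ligand that lies near Cxcl10 on chromosome 5 of GRCm38.p6, was well above background on 0 arrays.

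Over the 6 arrays, each gene centred on its own mean, the 3 tested genes nearest to Cxcl10 by root mean square distance were Inhba (0.13 log2 units), which encodes a subunit of activin A, the matrix proteoglycan gene Hspg2 (0.19) and Ccdc80 (0.22). Inhba had log2 signals of 9.80, 10.56 and 11.09 in controls and 12.92, 13.21 and 11.01 with TGF-β1. As for Cxcl10, treated replicate 3 lay just below control replicate 3, and the log2 fold change of Inhba was likewise 1.89 (adjusted p = 0.155). For Cxcl5 the nearest genes were Tigit (0.39), Krt15 (0.40) and Nusap1 (0.41), each lowest in TGF-β1 replicate 3. These distances rank genes by their values on the same 6 arrays, with no test.

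Cxcl16 and Cx3cl1 encode chemokines that are anchored in the cell membrane and can be shed from it. Cx3cl1, or fractalkine, the ligand of CX3CR1, had log2 signals of 12.49, 12.40 and 12.11 in the controls and 12.93, 13.16 and 12.55 with TGF-β1. Every treated array was above every control, although TGF-β1 replicate 3 exceeded control replicate 1 by little. The means were 12.33 ± 0.20 and 12.88 ± 0.31 (SD, n = 3 each), which did not pass the adjusted test, with a difference of 0.54 on the log2 scale or 1.46-fold (SE 0.19, 95% confidence interval 0.10 to 0.99, p = 0.023 and adjusted p = 0.17 in limma, exact permutation p = 0.1). It was 0.71 without TGF-β1 replicate 3 (adjusted p = 0.0363). The difference was 0.60 within slide row 1 (adjusted p = 0.0322) and 0.44 within row 2, and the adjusted p was 0.0757 with the row as a block.

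Cxcl16, the ligand of CXCR6 and a scavenger receptor for oxidized lipoprotein, had log2 signals of 14.56, 14.51 and 14.73 in the controls and 14.70, 14.76 and 14.54 with TGF-β1. The groups overlapped almost fully and no array stood out. The difference was 0.07 on the log2 scale (SE 0.12, adjusted p = 0.75) with a 95% confidence interval of −0.21 to 0.34, the narrowest of the 10. It was −0.05 for a second probe (adjusted p = 0.821 when all probes were tested) and −0.18 when arrays were scaled to their 75th percentile. Within rows 1 and 2 it was 0.19 and −0.19.

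The machinery that sheds both was measured through Adam10, Adam17, Rhbdf1 and Rhbdf2. The metalloproteases ADAM10 and ADAM17 cut them from the membrane, and the other genes encode iRhoms, which bring ADAM17 to the cell surface. All 4 had a higher mean with TGF-β1 and 0 passed the limma test (also 0 at an unadjusted p under 0.05), with log2 fold changes from 0.11 for Adam17 to 0.45 for Adam10 (adjusted p = 0.263), and with 0.27 for Rhbdf2 and 0.26 for Rhbdf1. Adam10 had log2 signals of 13.23, 13.26 and 13.61 in controls and 14.11, 13.92 and 13.40 with TGF-β1, where replicate 3 again lay within the control range. Without that array Adam10 rose by 0.65 (adjusted p = 0.0444) and the other 3 did not pass.

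Cxcl17, Ccl20 and Ccl28 are chemokines of mucosal surfaces. Cxcl17, which attracts monocytes and macrophages, had log2 signals of 11.98, 11.69 and 11.72 in the controls and 11.11, 10.94 and 11.43 with TGF-β1. All treated arrays were below all controls, and here replicate 3 was the treated array nearest to the controls. The means were 11.79 ± 0.16 and 11.16 ± 0.25 (SD, n = 3 each), so that the treated mean was 1.56-fold lower. The log2 fold change of −0.64 (SE 0.16, 95% confidence interval −1.02 to −0.26) had the lowest p of the 10 in limma, 0.00549, with an adjusted p of 0.103 and an exact permutation p of 0.1. Cxcl17 fell by 0.77 without TGF-β1 replicate 3 (adjusted p = 0.0221). Within slide row 1 the log2 fold change was −0.81 (adjusted p = 0.0247) and within row 2 it was −0.29.

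Ccl20, the ligand of CCR6 that recruits dendritic cells and Th17 cells, had log2 signals of 9.88, 10 and 11.33 in the controls and 9.66, 9.73 and 8.58 with TGF-β1. The first 2 arrays of each group lay close together, and the gap between the groups came mostly from replicate 3, which was the highest control and the lowest treated array. The log2 fold change was −1.08 (SE 0.47, 95% confidence interval −2.19 to 0.03, adjusted p = 0.233, exact permutation p = 0.1). It was −0.24 within slide row 1 (adjusted p = 0.139) and −2.75 within row 2. Without control replicate 3 it was −0.62, and without TGF-β1 replicate 3 it was −0.71 (adjusted p = 0.289).

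Ccl28, a ligand of CCR10 and CCR3 that draws antibody-secreting cells to mucosa, was dim. Its log2 signals were 4.95, 4.82 and 4.58 in the controls and 5.09, 4.08 and 3.63 with TGF-β1, and TGF-β1 replicate 3 was not well above background. The first treated array was the highest of the 6 and the third the lowest. The log2 fold change was −0.52 (SE 0.35, 95% confidence interval −1.36 to 0.33, adjusted p = 0.406), with −0.30 within slide row 1 and −0.95 within row 2. A second Ccl28 probe was well above background on 0 arrays.

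**Figure D2:**
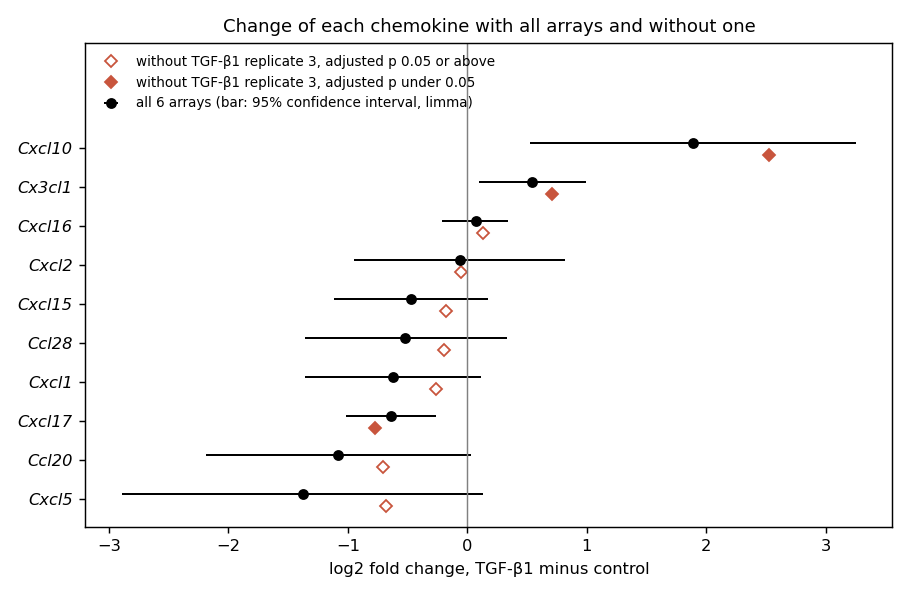
Log2 fold change (TGF-β1 minus control) of the 10 epithelial chemokines over all 6 arrays, with 95% confidence intervals from limma (black), and without TGF-β1 replicate 3 (diamonds, filled where the adjusted p was under 0.05). Without that array Cxcl10 moved from 1.89 to 2.52 and Cxcl5 from −1.38 to −0.68, and Cxcl10, Cx3cl1 and Cxcl17 passed the test.

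Of the 10 chemokines, 5 had their lowest value of the 6 arrays in TGF-β1 replicate 3 and 0 their highest, whereas 11% of all genes tested were lowest and 13.4% highest in that array. The 5 were Cxcl1, Cxcl5, Cxcl15, Ccl20 and Ccl28. The same array differed in marker levels. The mean level of basal cell markers was 13.12 to 13.57 in controls, 14.86 and 14.60 in TGF-β1 replicates 1 and 2, and 13.47 in replicate 3, with 5 of 5 markers well above background on all arrays. Epithelial markers were at 15.33, 15.36 and 14.91 in the 3 treated arrays. Without TGF-β1 replicate 3, where 15.4% of all genes passed, Epcam and Cldn4 rose by 1.03 and 0.86 and Elf3 fell by 1.17. The basal markers Krt5, Krt14 and Ngfr then rose by 1.90, 1.92 and 1.77, while Trp63 (0.23) and Krt15 (−0.24) did not pass. Fibroblast markers were at 6.11 to 6.31 in controls and at 8.24, 6.98 and 6.42 in the treated arrays, where 4 of the 8 markers, Col3a1, Pdgfrb, Lum and Tcf21, were well above background on 0 arrays. Dcn and Pdgfra were well above it on all arrays. Dcn had log2 signals of 8.98, 8.81 and 8.96 in controls and 11.10, 9.68 and 8.98 with TGF-β1 (limma adjusted p = 0.273). For Pdgfra the log2 fold change was 0.21 (adjusted p = 0.484). The fibroblast markers Col1a1 and Col1a2 were above background on the treated arrays alone, through which they passed the filter, so they had to be higher there. They were at least 2.59-fold and 2.38-fold higher. Their limma adjusted p of 0.0091 and 0.0162 belong to the signals as measured (log2 fold changes of 2.72 and 2.07) and do not test these bounds. Col1a2 did not pass without control replicate 1 or 2, and neither passed without TGF-β1 replicate 2. Such a mean follows the brightest genes of a list, and single markers could differ from it. Club cell markers were at 15.19 to 15.34 in controls and 15.04 to 15.22 with TGF-β1, while the secretoglobin genes Scgb1a1 and Scgb3a2 had log2 fold changes of −2.27 (adjusted p = 0.158, all treated arrays lower, fell without control replicate 3) and 1.05 (adjusted p = 0.117, all treated arrays higher, rose without TGF-β1 replicate 3). Ciliated cell markers were at 12.79 to 12.89 and 12.61 to 12.75, although 4 of the 6 had a higher treated mean. Foxj1, the master regulator of motile cilia, rose by 1.47 (SE 0.10, adjusted p = 0.00238) and passed whichever array was left out. Alveolar markers were at 14.08 to 14.35 and 14.07 to 14.35. Endothelial markers (3.68 to 4.03 and 3.95 to 4.10) and goblet cell markers (3.66 to 4.37 and 3.53 to 4.11) were near background. The part of these differences in the chemokine values was not tested.

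Most chemokines outside the 10 were too dim to be tested. Of 27 on the array, 8 were tested, all with a higher mean in treated cultures, and their median log2 fold change was 0.94. Ccl7 and Cxcl12 passed the filter on dim probes through the treated arrays alone, so that they had to be higher there and the count and median carry no support. By limma 1 of the 8 rose, Ccl7, a monocyte-attracting ligand of CCR2. Its log2 signals were 1.83, 1.77 and 2.86 in the controls, none of them well above background, and 4.45, 4.24 and 4.48 with TGF-β1, all well above it. Its level with TGF-β1 was at least 1.33-fold higher, counted against the lowest signal at which probes were well above background. The limma adjusted p of 0.0176 belongs to the signals as measured, with a log2 fold change of 2.24, and does not test that bound. The adjusted p of Ccl7 was between 0.0677 and 0.0912 when control replicate 1, control replicate 2, TGF-β1 replicate 1 or TGF-β1 replicate 2 was left out. Ccl5 (1.31, adjusted p = 0.134), Ccl9 (1.15, adjusted p = 0.224) and Ppbp (0.72, adjusted p = 0.66) did not pass over 6 arrays. They rose by 1.76, 1.73 and 1.88 without TGF-β1 replicate 3, so that 4 of the 8 passed. Ccl2, Ccl25 and Ccl27a were well above background on every array. Ccl2 had log2 signals of 11.84, 11.69 and 12.80 in controls and 12.63, 12.56 and 11.95 with TGF-β1, so that the groups overlapped. The log2 fold changes of the 3 were 0.27, 0.26 and 0.07 (limma adjusted p = 0.637, 0.217 and 0.707). Of the 9 leukocyte markers on the array, Ptprc, Adgre1, Siglecf and Cd79a were well above background on 0 arrays. The 4 that were well above it on all arrays were Cd68, Itgam, Csf1r and Cd3e. Cd68 and Itgam were higher in every treated array than in any control, with log2 fold changes of 0.90 and 0.43 (limma adjusted p = 0.147 and 0.134). For Csf1r and Cd3e the groups overlapped, with 0.01 and −0.24. The mean level over the 9 leukocyte markers was 10.20 to 10.42 in controls and 10.56 to 10.68 with TGF-β1. Its part in the chemokine values was not tested.

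**Figure D3:**
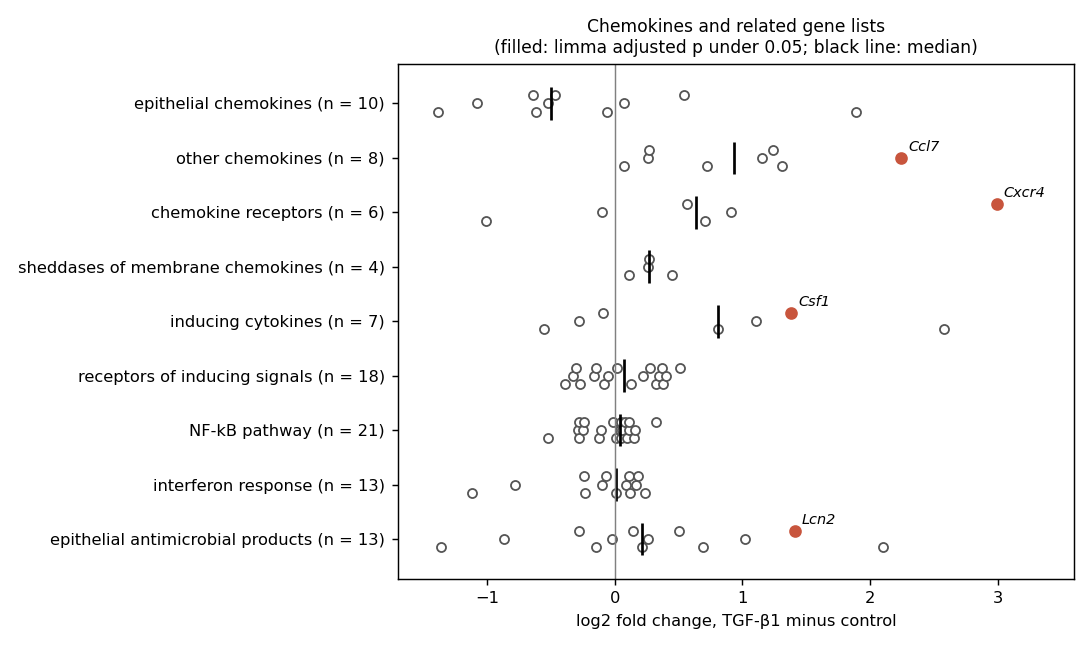
Log2 fold change (TGF-β1 minus control) of each tested gene in 9 lists, with the epithelial chemokines at the top and a black line at the median of each list. The epithelial chemokines lay on both sides of 0 (median −0.49) and the 8 other chemokines above it (median 0.94). Of these 8, Ccl7 and Cxcl12 passed the filter on dim probes through the treated arrays alone. They had to be higher there, so that count and median carry no support. The genes that passed the limma test (filled) were Ccl7, Cxcr4, Csf1 and Lcn2, and Cxcr4 passed the filter in the same way as Ccl7.

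The receptors that receive these signals were largely undetected in the cultures. Of 23 chemokine receptors on the array, 6 were tested, 4 of them with a higher mean and 2 with a lower one. Cxcr2, Ccr6, Ccr10 and Cx3cr1 were well above background on 0 arrays, and Cxcr3 was on 1 array at most. By limma 1 of the 6 rose, Cxcr4, the receptor of Cxcl12, with log2 signals of 4.28, 3.68 and 2.98 in controls, none of them well above background, and 6.78, 5.99 and 7.12 with TGF-β1, through which alone it passed the filter. Having passed in that way, Cxcr4 had to be higher there, so the counts of receptors carry no support. It was at least 6.06-fold higher. The limma adjusted p of 0.0191 belongs to the signals as measured, with a log2 fold change of 2.99, and does not test that bound. The adjusted p of Cxcr4 was 0.0826 without control replicate 2 and 0.095 without TGF-β1 replicate 1. Cxcr6, the receptor of Cxcl16, had log2 signals of 5.19, 5.45 and 5.37 in controls and 6.60, 6.59 and 5.55 with TGF-β1. All treated arrays were above the controls, replicate 3 only just, and the log2 fold change was 0.91 (adjusted p = 0.153), or 1.26 without TGF-β1 replicate 3 (adjusted p = 0.00534). Without that array 2 receptors rose, Cxcr4 and Cxcr6, and Ccr8, which was well above background on 3 control arrays and 1 treated array, fell by 1.14 (adjusted p = 0.0201), against −1.01 with all arrays (adjusted p = 0.0575).

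Transcripts of the NF-κB pathway, which drives many of these chemokines, showed small differences, and the activity of the pathway was not measured. Of 21 genes of the NF-κB pathway, all tested, 12 had a higher and 9 a lower mean and 0 passed by limma (0 higher and 2 lower at an unadjusted p under 0.05). Their log2 fold changes ran from −0.52 for Zfp36, whose product destabilizes inflammatory mRNAs (adjusted p = 0.0935), to 0.32 for Tnfaip3, a feedback inhibitor of NF-κB (adjusted p = 0.265), with a median of 0.04. Nfkb1 was at −0.28 (adjusted p = 0.216) and Ikbkg, a subunit of the IκB kinase complex, at −0.29 (adjusted p = 0.263). Zfp36 was the 1 gene that passed without TGF-β1 replicate 3, with a log2 fold change of −0.58 (adjusted p = 0.0358).

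The receptors and adaptors of inducing signals behaved similarly, with 10 of 18 higher, 8 lower and 0 called (2 higher at an unadjusted p under 0.05). The largest differences were 0.51 for the interferon receptor gene Ifnar1 (adjusted p = 0.103), 0.40 for the interleukin 1 receptor gene Il1r1 (adjusted p = 0.243) and −0.39 for the lipopolysaccharide receptor gene Tlr4 (adjusted p = 0.293). Without TGF-β1 replicate 3, Ifnar1, Ifnar2 and Il1r1 rose by 0.61, 0.55 and 0.60, and Myd88, an adaptor of Toll-like and interleukin 1 receptors, fell by 0.49 (adjusted p = 0.0377).

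Among cytokines made by epithelium, 7 of 12 on the array were tested, with 4 higher and 3 lower. Il1a, Il1b and Il6 were well above background on 0 arrays. Csf1, which sustains macrophages, was the 1 that rose. It had log2 signals of 12.85, 12.90 and 13.43 in controls and 14.50, 14.61 and 14.20 with TGF-β1, and the groups were clearly separate, including replicate 3. The difference was 1.38 on the log2 scale (SE 0.19, adjusted p = 0.0216), and the adjusted p was between 0.0921 and 0.106 when control replicate 1 or 2 or TGF-β1 replicate 1 or 2 was left out. Csf2 had a log2 fold change of 2.58 (adjusted p = 0.117) and Csf3, the neutrophil growth factor, of 1.11 (adjusted p = 0.118). Without TGF-β1 replicate 3, Csf1, Csf2, Csf3 and Lif rose, with log2 fold changes from 1.18 for Lif to 3.2 for Csf2.

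Antimicrobial products of the epithelium, which are often released together with these chemokines, were tested for 13 of 17 genes on the array, with 8 higher and 5 lower. Lcn2, which encodes an iron-siderophore-binding protein, was the 1 that rose, with log2 signals of 14.22, 13.94 and 13.78 in controls and 15.23, 15.77 and 15.17 with TGF-β1. The groups did not overlap, and the log2 fold change was 1.41 (SE 0.20, adjusted p = 0.0221). Lcn2 did not pass when any 1 of the arrays other than TGF-β1 replicate 3 was left out (adjusted p from 0.0542 to 0.0977). Without TGF-β1 replicate 3, Lcn2 and Pigr, the receptor that carries IgA across epithelium, rose by 1.51 and 0.73, without control replicate 3 the lysozyme gene Lyz1 alone passed and fell, and without control replicate 1 Bpifb1, above background on the treated arrays alone, was the 1 that passed and rose.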

How the data were processed

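RNA of 3 control and 3 TGF-β1-treated 2D-MAO cultures was hybridised to 1 single-dye (Cy3) Agilent mouse expression array each. The deposited files hold the spot intensity on a linear scale, background-subtracted and detrended by Agilent Feature Extraction 11.0.1.1 and not normalized between arrays; the authors applied quantile normalization afterwards. Groups come from the sample titles. No columns of other samples were present.

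Control spots and outlier spots were left out. Processed intensities were set to log2 and normalized by quantiles, and the groups were compared with limma 3.58.1 in R 4.3.3 (lmFit and eBayes, no further terms, Benjamini-Hochberg adjustment over 14345 genes, two-sided). Probes were named through RefSeq accessions of the GRCm38.p6 table (32991 of 35883 such probes matched), and probes with other accessions were not used. A gene was represented by its brightest probe among those well above background on at least 3 of 6 arrays. Single values were also compared with an exact two-sided permutation test. The number of arrays limits the precision. Scripts were tested on simulated data.

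Where no array of a group was well above background, the change is a bound, taken against the higher of the probe's own signal and the lowest signal well above background on each array. The p-values of such genes are those of the signals as measured and do not test the bound.

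The members and lists were chosen with earlier results of these data known, and the lists were written from general knowledge. Named are all 10 members, in the lists other than cell type markers up to 4 genes with adjusted p under 0.05 or else the 3 with the largest change, and the 3 genes most like the members with the largest increase and decrease. Single cell type markers, genes named as not well above background, Adam17, Nfkb1, Csf2, Ccl2, Ccl25, Ccl27a and genes that passed only when an array was left out were chosen after their values were seen. Alternatives were 75th percentile scaling, normexp on median spot brightness with offset 50, other filters and probe rules, the methods' t-test, other limma settings, replicate and slide row blocks, slide row 1 alone and leaving out each array. Counts in lists without TGF-β1 replicate 3 were added after seeing the data. One gene that this rule selects is not reported here.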

Additional observations from a re-analysis of the deposited data

How the results depend on the processing

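Over the alternatives, 163 of 177 log2 fold changes of the 10 chemokines kept their direction and their side of the threshold, 10 kept direction and came to pass it, and 4 changed sign. The sign changes were Cxcl2 at 0.11 and Cxcl16 at −0.18 with 75th percentile scaling, and Cxcl2 at 0.25 when control replicate 1 was left out and at 0.22 when TGF-β1 replicate 2 was (−0.36 to 0.25 over the fits that left out 1 array). The number of chemokines that rose, 0, became 2 (Cxcl10 and Cx3cl1) and the number that fell, 0, became 1 (Cxcl17) with array weights, in slide row 1 alone and on leaving out TGF-β1 replicate 3. The ranges on leaving out 1 array were 0 to 2 and 0 to 1. These settings called more genes of every kind. Leaving out TGF-β1 replicate 3 called 15.4% of all genes, against 2.04% with all arrays. For array weights and slide row 1 alone that share was not counted. With a change of 2-fold or more as well, they called 807 and 861 genes, against 198 in the main fit. The methods' t-test without adjustment also gave 1 lower, again with no share of all genes counted. When a probe had to be well above background on all 6 arrays, Cxcl2, Cxcl15 and Ccl28 had no value.

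Over all genes, 198 passed the adjusted threshold with a change of 2-fold or more, of which 86.4% were higher. The count was 60 with no filter, 5 by the methods' t-test after adjustment and 388 before it, 807 with array weights, 861 in slide row 1 alone, and 56 to 709 when 1 array was left out. Leaving out control replicate 1 or 2 gave 74 or 83, and leaving out TGF-β1 replicate 1, 2 or 3 gave 67, 56 or 709. Deviations from the group means of same-numbered arrays correlated at −0.01, 0.33 and −0.05, so the numbers were not taken as pairs; with the replicate block the count was 104 and 0 chemokines passed, and Cxcr4, Csf1 and Lcn2 did not pass. Ccl7 had a log2 fold change of 0.37 (adjusted p = 0.0997) with normexp. Ccl7, Cxcr4, Csf1 and Lcn2 passed neither without the filter nor by the adjusted t-test. The cause of these differences was not tested. Signal over background limits Cxcl2, Cxcl15 and Ccl28, whose log2 fold changes were −0.06, −0.47 and −0.52.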
